A study of Mus musculus with 8 samples.

Results

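The galectins are a family of small lectins that bind N-acetyllactosamine, the galactose-N-acetylglucosamine unit at the ends of complex N-glycans. Transcripts of 9 genes were followed in germ cells of 15-day C57BL/6 males: *Lgals1*, *Lgals2*, *Lgals3*, *Lgals4*, *Lgals7*, *Lgals8*, *Lgals9*, the galectin-related gene *Lgalsl*, and *Lgals3bp*, which encodes a galectin-binding glycoprotein. Members were taken by gene name, and all 9 were found among the 55357 genes of the table. Libraries were made from 4 *Mgat2*[F/F] controls, which carry floxed *Mgat2* alleles without Cre, and 4 *Mgat2*[F/F]:*Stra8*-iCre males (*Mgat2* cKO), in which the same floxed alleles are deleted from spermatogonia onwards. All 8 were germ cell preparations from testis tubules treated with collagenase and then trypsin, and a preparation of this kind can retain somatic cells that lack the Cre. The comparison asks whether transcripts of the lectins differ when germ cells can no longer make the complex N-glycans that carry their ligand.

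Galectins share a carbohydrate recognition domain whose sugar-binding face is made by a short set of conserved residues. Prototype galectins (*Lgals1*, *Lgals2*, *Lgals7*) have 1 such domain and act as dimers. The chimera galectin *Lgals3* joins 1 domain to a flexible tail through which it oligomerizes, and the tandem-repeat galectins (*Lgals4*, *Lgals8*, *Lgals9*) have 2 domains in 1 chain. Galectins act outside the cell by cross-linking glycoproteins into lattices, and inside it by binding sugars exposed on damaged vesicles. In the testis, galectin-1 is best known from Sertoli cells, the somatic cells that nurse the germ cells. MGAT2 adds the N-acetylglucosamine that starts the second antenna of a complex N-glycan, so its loss leaves hybrid N-glycans.

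The coding sequence that carries the sugar-binding signature is shown for *Lgals1* as the reference, for *Lgals3* and the second domain of *Lgals8*, which keep it, and for the domains that depart from it, 5′ to 3′ on the coding strand, with the codons of the 8 signature positions in capitals. The sequences were read from the GRCm39 mouse genome annotation, the build of the deposited table.

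*Lgals1*: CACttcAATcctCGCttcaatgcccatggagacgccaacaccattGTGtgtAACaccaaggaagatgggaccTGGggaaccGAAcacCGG
*Lgals3*: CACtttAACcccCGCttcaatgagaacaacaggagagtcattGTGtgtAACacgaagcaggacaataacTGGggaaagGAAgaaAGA
*Lgals8*, first domain: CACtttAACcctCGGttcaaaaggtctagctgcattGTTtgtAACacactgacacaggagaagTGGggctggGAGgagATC
*Lgals8*, second domain: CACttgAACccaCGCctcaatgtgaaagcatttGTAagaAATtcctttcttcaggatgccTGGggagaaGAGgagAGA
*Lgals4*, first domain: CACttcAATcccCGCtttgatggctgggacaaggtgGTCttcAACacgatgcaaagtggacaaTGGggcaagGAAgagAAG
*Lgalsl*: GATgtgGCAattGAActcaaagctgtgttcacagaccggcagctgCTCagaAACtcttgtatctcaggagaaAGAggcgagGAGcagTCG

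These stretches lie at chr15:78813876-78813965 on the plus strand for *Lgals1*, chr14:47622099-47622185 on the plus strand for *Lgals3*, chr13:12469688-12469768 on the minus strand and chr13:12462070-12462147 on the minus strand for the domains of *Lgals8*, chr7:28535304-28535384 on the plus strand for *Lgals4*, and chr11:20779311-20779400 on the minus strand for *Lgalsl*. Each stretch falls within 1 coding exon. In the alignment to *Lgals1*, 11 domains were found in 8 of the 9 members, and *Lgals3bp* has none. The codons encoded the same residue as *Lgals1* at 8 of 8 signature positions in *Lgals2*, *Lgals3*, *Lgals7*, both domains of *Lgals9* and the second domains of *Lgals4* and *Lgals8*. The first domains of *Lgals4* and *Lgals8* matched at 7 of 8 positions. *Lgalsl* matched at 2 of 8 positions, while 28.2% of its aligned codons encoded the same residue as *Lgals1*, against 25.8% for the first domain of *Lgals4* and 48.7% for *Lgals2*. Low overall identity was therefore shared by several members, and the lost signature was found in *Lgalsl*.

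All 9 members are protein-coding genes. *Lgals1* (chr15:78810875-78814670, plus strand) and *Lgals2* (chr15:78735060-78739939, minus strand) lie 70935 bp apart on chromosome 15. *Lgals4* (chr7:28531804-28541281) and *Lgals7* (chr7:28562343-28565722) lie 21061 bp apart on the plus strand of chromosome 7. *Lgals3* is at chr14:47605208-47623624 on the plus strand and *Lgals8* at chr13:12454282-12479840 on the minus strand. *Lgals9* (chr11:78853800-78875798), *Lgalsl* (chr11:20773335-20781341) and *Lgals3bp* (chr11:118280716-118292918) are on the minus strand of chromosome 11. The libraries were not stranded, so reads from overlapping genes on opposite strands cannot be told apart. This touches *Lgals2* most, since 67.2% of its exonic bases (550 bp) overlap *Cdc42ep1*, which was listed at 4.13 to 6.52 TPM. For *Lgals1*, 30.6% of exonic bases overlap the antisense gene *Gm30368*. The overlap of *Lgals8* with *Heatr1* is 155 bp (2.8% of exonic bases, 5.4% of its reference transcript). *Heatr1* was at 58.9 to 68.4 TPM in controls and 68.9 to 80.5 TPM in cKO, above *Lgals8* (mean 18.7 TPM). Its part in the *Lgals8* value was not tested. *Lgalsl* overlaps *Gm32213* over 6.5% of its exonic bases.

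The libraries held 12584726 to 15907505 deposited expected counts in controls and 14069373 to 15572196 in *Mgat2* cKO. *Mgat2* itself was measured at 1028, 490, 1017 and 766 counts in control replicates 1 to 4 and at 531, 310, 539 and 226 in cKO replicates 1 to 4, a log2 fold change of -1.05 (edgeR adjusted p = 0.47, DESeq2 adjusted p = 0.025). The groups overlap at control 2, and 13.8% of the exonic bases of *Mgat2* overlap other genes. One of them, *Rpl36al*, was at 238 to 532 TPM in controls and 103 to 208 TPM in cKO, above *Mgat2* and likewise lower in cKO, and its part in the *Mgat2* value was not tested. The fraction held transcripts of both germ and somatic cells. All 10 Sertoli markers were detected, with summed levels of 4817 to 5864 TPM in controls and 4920 to 5882 TPM in cKO, most of it *Clu* (mean 4255 TPM). Summed peritubular myoid markers ranged from 363 to 694 TPM, stromal markers from 176 to 354, macrophage markers from 40.7 to 72.5, Leydig cell markers from 35.9 to 89.7, endothelial markers from 14.9 to 36.0 and erythroid markers from 58.4 to 201.3 over the 8 libraries. Among germ cell lists, summed early spermatocyte markers were at 617 to 1047 TPM, differentiating spermatogonia at 300.2 to 461.7, undifferentiated spermatogonia at 68.8 to 107.9 and round spermatids at 14.0 to 53.3, with *Prm1* at 0 in all 8. Pachytene spermatocyte markers summed to 2986, 1195, 1525 and 939 TPM in controls 1 to 4 and to 983, 493, 505 and 480 TPM in cKO 1 to 4 (exact two-sided permutation p = 0.057, 0.69 after adjustment over 12 lists). Replicate 1 of each genotype stood apart, with the highest pachytene and differentiating spermatogonia sums and the lowest Sertoli and myoid sums of its group, and values without both are given below. In bulk RNA, fewer cells of a type and less RNA per cell cannot be told apart.

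*Lgals1* was by far the main galectin transcript of these preparations. Its level was 162.4, 204.5, 147.9 and 172.2 TPM in controls 1 to 4 and 174.6, 183.9, 200.3 and 169.7 TPM in cKO 1 to 4. It was above 96.2% of the 20187 genes tested and made up 66.9 to 75.1% of the summed galectin TPM in controls and 69.8 to 78.6% in cKO. The next members, *Lgals8* (18.7 ± 3.69 TPM, SD, n = 8) and *Lgals4* (18.3 ± 6.69 TPM), did not differ beyond their spread, with *Lgals8* the higher in 5 of 8 libraries and *Lgals4* the higher by median. Both exceeded *Lgalsl* (9.72 ± 1.99 TPM) in all 8 libraries. *Lgals2* (5.90 ± 1.75 TPM) and *Lgals7* (5.81 ± 3.42 TPM) were again within each other's spread, each the higher in 4 libraries. *Lgals9* (4.57 ± 1.46 TPM), *Lgals3bp* (3.47 ± 1.58 TPM) and *Lgals3* (1.29 ± 0.459 TPM) closed the order. Neighbouring ranges overlapped at each of these lower steps, although *Lgals3bp* was above *Lgals3* in all 8 libraries. The summed galectin level was 242 ± 26.9 TPM in controls and 247 ± 8.91 TPM in cKO (SD, n = 4 each), and the ranges of 219 to 272 and 237 to 255 overlapped.

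**Figure D1:**
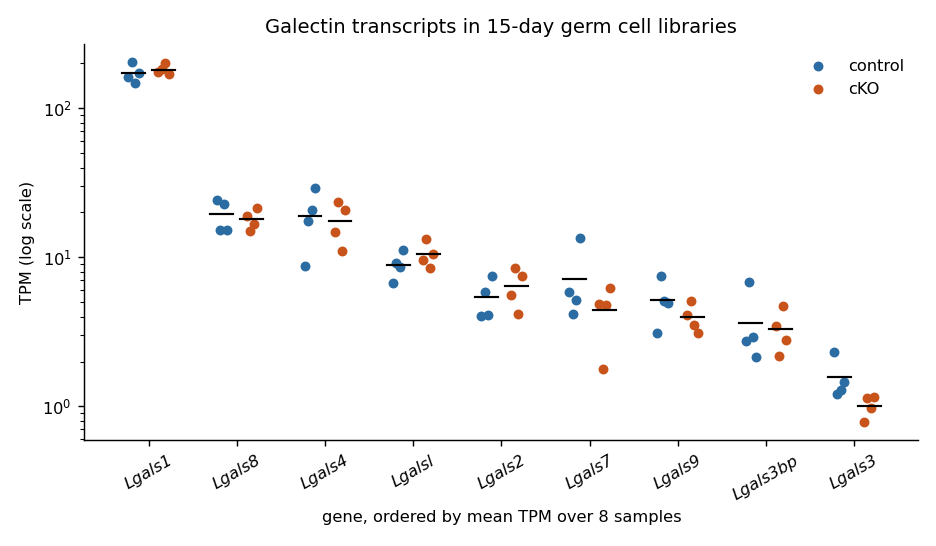
TPM of the 9 genes on a log axis, ordered by mean TPM, with 1 point per library (blue, 4 control; orange, 4 cKO) and a black line at each group mean. *Lgals1* lies between 148 and 205 TPM in every library, apart from all other members, whose highest value is 29.05 TPM. The genotypes overlap for every gene but *Lgals3*, which was read at 6 to 14 counts per library and overlaps on counts.

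The remaining family genes were scarcely read. *Lgals12*, an adipocyte galectin, had 0 to 5 counts per library, and *Grifin*, a lens protein of the family, had 2 counts in control 3 and 0 in the other libraries. With 3 counts as the limit of detection, the floor was 0.189 to 0.238 CPM per library. Both stayed under 1 TPM and were not tested. *Lgals6*, a close copy of *Lgals4* in some mouse strains, was not analysed here. The processed pseudogene *Lgals1-ps2*, which shares sequence with *Lgals1*, received at most 4 counts in any library, and *Lgals1-ps1* none.

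No member passed the threshold for a difference between *Mgat2* cKO and control germ cells. By the edgeR quasi-likelihood fit, with p-values adjusted by Benjamini-Hochberg across the whole table, 0 of 9 had an adjusted p under 0.05 against 0.0396% of all genes tested (8 of 20187). At an unadjusted p under 0.05 the count was again 0 of 9, against 8.90% of all genes. DESeq2 called 0 of 9, against 302 of 20187 over all genes tested. All 9 had reached the minimum of 1 TPM, and each had done so in both genotypes. Log2 fold changes (cKO over control) ran from -0.37 for *Lgals9* to 0.27 for *Lgals2*, with 3 above and 6 below zero and a median of -0.22, against a median of 0.01 over all genes tested.

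**Figure D2:**
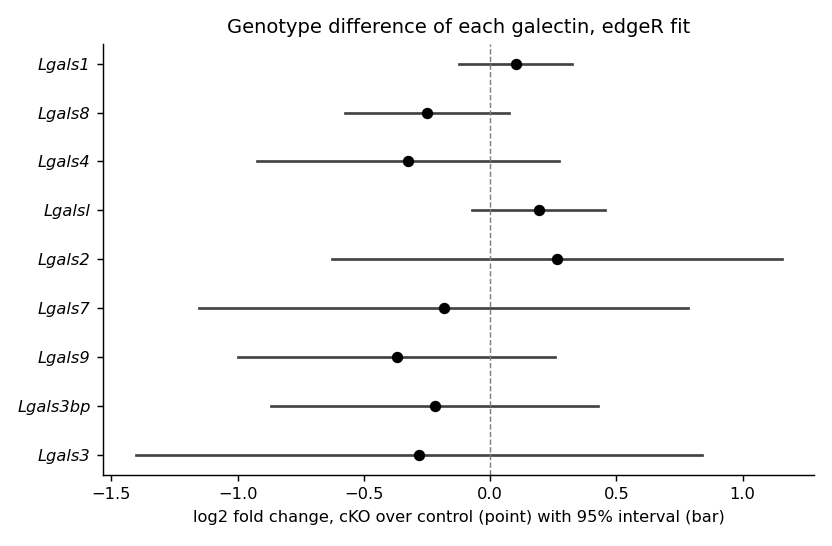
Log2 fold change of each member (point) with its 95% interval (bar) from the edgeR fit, 4 cKO against 4 control libraries, in order of mean TPM. The interval of *Lgals1* runs from -0.12 to 0.33 and that of *Lgals3*, the least abundant, from -1.40 to 0.84, and each of the 9 intervals includes zero.

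Among the prototype galectins, *Lgals1* was read at 764, 974, 749 and 696 counts in controls 1 to 4 and at 860, 901, 919 and 747 counts in cKO 1 to 4. The groups overlapped. The lowest count was in control 4, the library with the fewest expected counts, and the highest in control 2. In normalized CPM the lowest was control 3 (47.3) and the highest cKO 3 (64.1). The normalized levels were 54.2 ± 6.65 CPM in controls and 58.1 ± 4.61 CPM in cKO (SD, n = 4 each), a log2 fold change of 0.10 (SE 0.103, 95% interval -0.12 to 0.33, edgeR adjusted p = 0.79). It was 0.18 without control 2 and 0.042 without control 3. The whole interval lies above -1.05, the value estimated for *Mgat2* in the same libraries. That value had its own 95% interval of -1.89 to -0.21, and it sets no scale for a change in a galectin.

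*Lgals2*, a galectin of the digestive tract, was read at 11, 16, 12 and 18 counts in controls and 16, 24, 11 and 19 in cKO, a log2 fold change of 0.27 (95% interval -0.62 to 1.16, edgeR adjusted p = 0.88). *Lgals7*, a galectin of stratified epithelia, was read at 25, 18, 13 and 25 counts in controls and 19, 8, 20 and 25 in cKO, with a log2 fold change of -0.18 (95% interval -1.15 to 0.78, edgeR adjusted p = 0.94). Both had few counts and both overlapped between genotypes, and changes of a size within these wide intervals remain possible. Without control 4 the log2 fold change of *Lgals2* was 0.48, and without cKO 2 it was 0.11. For *Lgals7* the sign was not stable, since the log2 fold change was 0.073 without cKO 2 and 0.014 without control 4.

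*Lgals3*, the chimera galectin, widely used as a marker of activated macrophages, was the least abundant member. Its counts were 14, 9, 7 and 10 in controls 1 to 4 and 6, 7, 9 and 11 in cKO 1 to 4. The groups overlapped, and the log2 fold change of -0.28 (95% interval -1.40 to 0.84, edgeR adjusted p = 0.91) became 0.049 without replicate 1 of both genotypes. On TPM the genotypes of *Lgals3* did not overlap, at 1.21 to 2.31 TPM in controls and 0.78 to 1.16 TPM in cKO, although its counts did. These values rest on 6 to 14 counts per library. The share of all genes whose genotypes do not overlap on TPM was not computed, so the separation is not read as a genotype difference. Of its binding partner gene *Lgals3bp*, 54, 98, 51 and 35 counts were read in controls and 54, 42, 63 and 43 in cKO. In normalized CPM, control 2 was the highest (6.35) of the 8 and cKO 2 the lowest (2.72), with control 4 close to it (2.73). The log2 fold change of *Lgals3bp* was -0.22 (95% interval -0.87 to 0.43, edgeR adjusted p = 0.86) and turned to 0.10 without control 2.

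The tandem-repeat galectins were all lower in mean in *Mgat2* cKO, each within the spread of the samples. *Lgals8*, which binds sugars exposed on damaged vesicles and recruits autophagy receptors, was read at 400, 307, 416 and 237 counts in controls 1 to 4 and at 313, 254, 279 and 290 counts in cKO 1 to 4. In normalized CPM, controls 1 and 3 were the highest (27.2 and 26.3) and cKO 2 the lowest (16.4) of the 8. The normalized levels of 23.0 ± 4.39 CPM in controls and 19.3 ± 2.00 CPM in cKO (SD, n = 4 each) gave a log2 fold change of -0.25 (SE 0.149, 95% interval -0.58 to 0.07, edgeR adjusted p = 0.65). Without control 1 it was -0.16.

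*Lgals4*, known from the intestinal epithelium, was the most variable of the better-read members. It had 79, 152, 176 and 135 counts in controls 1 to 4 and 70, 138, 91 and 134 counts in cKO 1 to 4. The lowest library of each genotype was replicate 1, and the groups overlapped. At 9.22 ± 2.62 CPM in controls and 7.36 ± 2.27 CPM in cKO (SD, n = 4 each), its log2 fold change was -0.33 (SE 0.275, 95% interval -0.92 to 0.27, edgeR adjusted p = 0.74). Single libraries moved it, to -0.51 without control 1 and -0.16 without cKO 1. Within genotypes the SD of log2 CPM was 0.475, and 16.7% of 1558 genes of like mean level had a larger one.

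*Lgals9*, a ligand of the T cell receptor TIM-3, was read at 37, 90, 64 and 49 counts in controls and 50, 62, 40 and 34 in cKO, a log2 fold change of -0.37 (95% interval -1.0 to 0.26, edgeR adjusted p = 0.73). Controls held both the highest value and the second lowest. This fold change rested on single libraries, at -0.14 without control 2 and -0.54 without control 1. Without replicate 1 of both genotypes it was -0.57 (edgeR adjusted p = 0.35).

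*Lgalsl*, the galectin-related gene that lacks most of the sugar-binding signature, was the only member whose genotypes did not overlap in normalized CPM. Its normalized level was 13.2, 14.3, 14.8 and 15.2 CPM in controls 1 to 4 and 16.1, 17.5, 16.2 and 16.0 CPM in cKO 1 to 4. Every cKO library was above every control, by a small step. The means of 14.4 ± 0.867 CPM in controls and 16.4 ± 0.739 CPM in cKO (SD, n = 4 each) gave a log2 fold change of 0.19 (SE 0.120, 95% interval -0.07 to 0.45, edgeR adjusted p = 0.67). The exact two-sided permutation p was 0.029, the smallest that 4 against 4 samples allow, and it stands for 1 of 9 members tested in this way. Over all genes tested, 5.50% (1110 of 20187) had genotypes that did not overlap, so 1 of 9 is not far from the background. On deposited TPM, which also depend on the isoform estimate, the genotypes overlapped, at 6.78 to 11.22 TPM in controls and 8.51 to 13.34 TPM in cKO. *Lgalsl* also had the narrowest spread among the members. The SD of its log2 CPM within genotypes was 0.076, and 99.1% of 1928 genes of like mean level had a larger one.

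**Figure D3:**
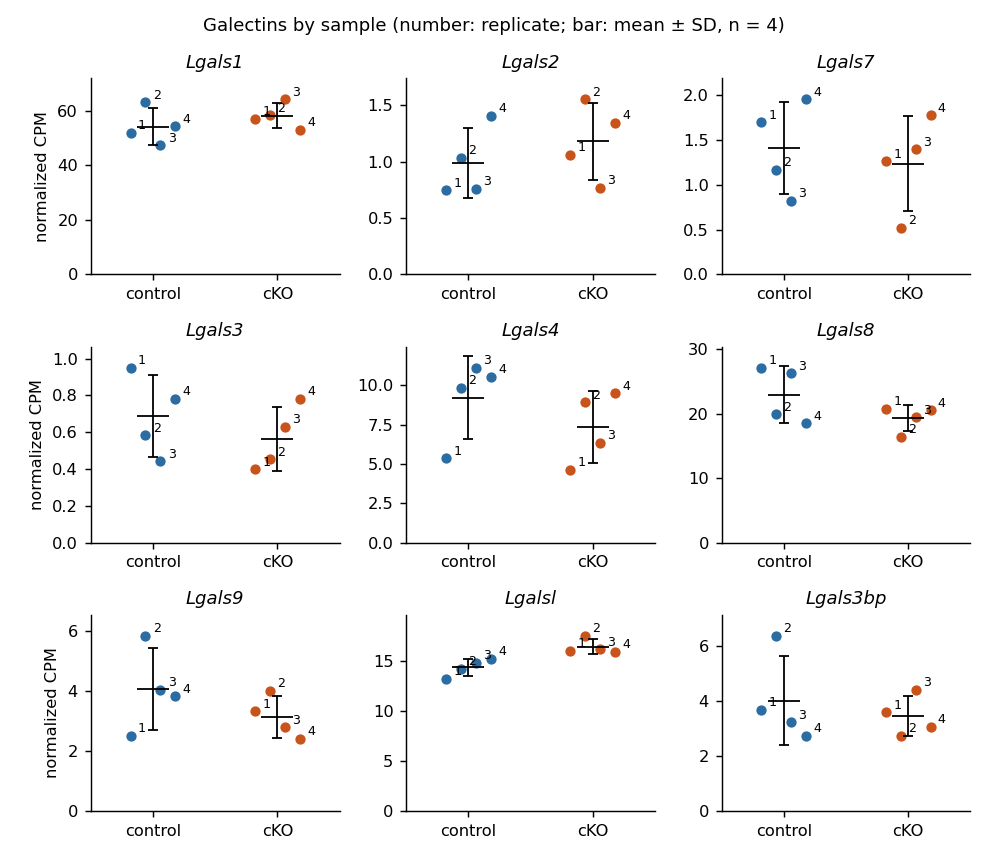
Normalized CPM of the 9 members in each library, with the replicate number beside each point and the mean ± SD of 4 libraries in black, every axis starting at 0. The 4 *Lgalsl* values of cKO (16.0 to 17.5 CPM) lie above the 4 of controls (13.2 to 15.2 CPM), and the genotypes overlap in the other 8 panels.

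The scale of the values matters for several members, because TPM divides the expected count by a length that the authors' quantification sets from the mix of isoforms in each library. The number of expected counts behind 1 TPM should be nearly the same in libraries of like depth. Its highest to lowest ratio had a median of 1.15 over 11183 well-read genes at 1 TPM or more in every library. It was 1.05 for *Lgals1*, 1.08 for *Lgals2* and 1.02 for *Lgals9*, but 1.36 for *Lgals8*, 1.44 for *Lgals3bp*, 1.45 for *Lgalsl*, 1.94 for *Lgals7*, 1.95 for *Lgals4* and 2.01 for *Lgals3*. *Lgals2*, *Lgals3*, *Lgals3bp*, *Lgals7* and *Lgals9* had too few counts to be among those genes, so for them the median is not one of like genes. The annotation holds 42 transcripts of *Lgals8* and 7 of *Lgals4*, the latter from 408 to 3007 bases long. On the log2(TPM + 1) scale, the log2 difference between genotypes was -0.08 for *Lgals8* and -0.05 for *Lgals4*, against -0.25 and -0.33 on counts. For *Lgals7* it was -0.55 against -0.18. The TPM fit also differs in normalization, pseudocount and model, and the genotype difference in counts behind 1 TPM had an exact two-sided permutation p of 0.086 for *Lgals8* and 0.26 for *Lgals4*, so the part of the isoform length was not settled.

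The members' values across libraries were set beside the marker sums of the preparation, on log scales, for 9 members and 12 lists (108 relations, chosen after the values had been seen). At an unadjusted permutation p under 0.05 for r there were 9, and none passed Benjamini-Hochberg adjustment, the lowest adjusted p being 0.13. *Lgals4* followed the early spermatocyte markers over the 8 libraries with Pearson's r = 0.86 (permutation p = 0.0037, adjusted 0.14) and Spearman's rho = 0.76 (permutation p = 0.037, adjusted 0.66). The r was 0.84 without control 1 and control 3, the libraries farthest from the median, and 0.90 within the 4 controls and 0.87 within the 4 cKO. The lowest early spermatocyte sums were those of control 1 (617 TPM) and cKO 1 (637 TPM), which also had the lowest *Lgals4* CPM. The r of 0.84 still includes cKO 1, and those within genotypes each include a replicate 1 library. The r without both was not computed, so how far this relation rested on the replicate 1 libraries was not tested. *Lgals4* ran opposite to the differentiating spermatogonia markers, with r = -0.92 (permutation p = 0.0012, adjusted 0.13) and rho = -0.86 (permutation p = 0.011, adjusted 0.66). Without control 1 and cKO 1 this r was -0.64, so much of it rested on the replicate 1 libraries. *Lgals4* also followed somatic and blood cell markers. Its r was 0.81 with the erythroid markers (permutation p = 0.014, adjusted 0.30; rho 0.55, permutation p = 0.17) and 0.76 with the peritubular myoid markers (permutation p = 0.032, adjusted 0.50; rho 0.31, permutation p = 0.46). Within the 4 controls and the 4 cKO these were 0.94 and 0.96 for the erythroid markers and 0.99 and 0.96 for the myoid markers. Without control 1 and cKO 1 they were 0.52 and -0.071, so both relations rested on the replicate 1 libraries.

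*Lgalsl* and *Lgals8* moved in opposite directions beside the pachytene spermatocyte markers. For *Lgalsl*, r was -0.89 (permutation p = 0.0040, adjusted 0.14) and rho -0.79 (permutation p = 0.028, adjusted 0.66), with r = -0.84 without control 1 and cKO 4. Within genotypes r was -0.89 in the 4 controls and -0.33 in the 4 cKO. *Lgalsl* also ran opposite to the round spermatid markers (r = -0.85, permutation p = 0.0085, adjusted 0.23; rho -0.69, permutation p = 0.069). This r was -0.87 in the 4 controls and -0.84 in the 4 cKO, and -0.35 without control 1 and cKO 2, on which it rested. Of the 6 round spermatid markers, 3 reached 1 TPM in any library. Most of their sum was *Dbil5* (mean 15.9 TPM) and *Spaca1* (mean 7.64 TPM), so it stands mainly for these genes. For *Lgals8* and the pachytene markers, r was 0.80 (permutation p = 0.019, adjusted 0.33) and rho 0.69 (permutation p = 0.069, adjusted 0.75), with r = 0.77 without control 1 and cKO 4. Within genotypes it was 0.87 in the controls and 0.46 in the cKO. Since the pachytene sum was itself lower in 3 of 4 cKO libraries than in any control, the part of germ cell stage in the *Lgalsl* and *Lgals8* differences was not tested. *Lgals1*, the galectin known from Sertoli cells, had r = 0.35 with the Sertoli markers (permutation p = 0.39, adjusted 0.81) and rho = 0.50 (permutation p = 0.22, adjusted 0.83), and r was 0.43 without control 1 and cKO 1. The Sertoli sum spans only 4817 to 5882 TPM, which leaves little range for such a relation.

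**Figure D4:**
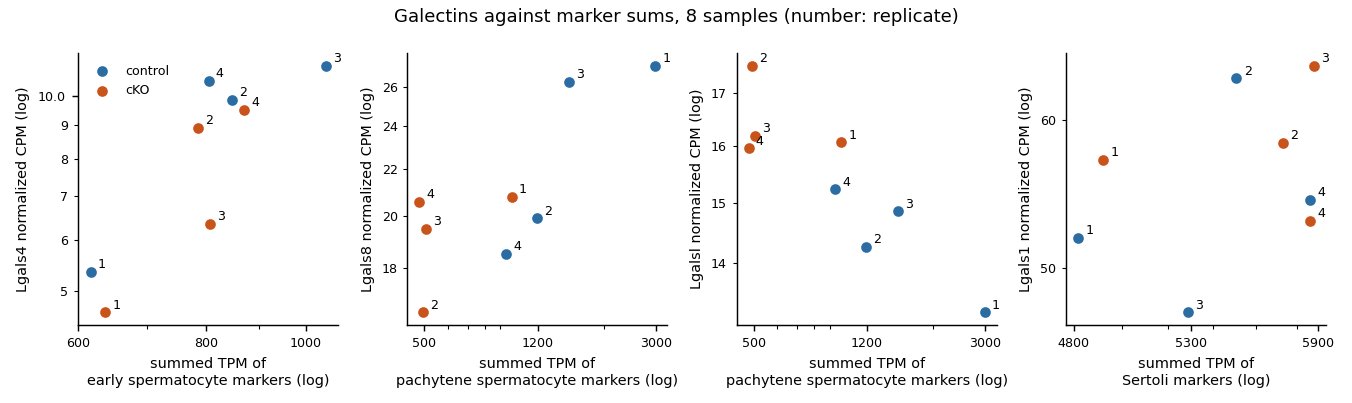
Normalized CPM of 4 members against the summed TPM of a marker list, both on log axes, for 8 libraries (blue, control; orange, cKO; number, replicate). *Lgals4* rises with early spermatocyte markers (r = 0.86), *Lgals8* rises (r = 0.80) and *Lgalsl* falls (r = -0.89) with pachytene markers, and *Lgals1* is spread widely against Sertoli markers (r = 0.35). In the *Lgals4* panel the replicate 1 libraries are the lowest on both axes, and r without them was not computed.

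The genes whose profiles over the 8 libraries were most like those of the 3 most abundant members were named by the smallest root mean square difference of centred log2 CPM. They were *Impdh1* (0.040), *Spata5l1* (0.047) and *Klf16* (0.049) for *Lgals1*. For *Lgals8* they were *Abca5* (0.064), *Kif24* (0.071) and *Terb2* (0.073), and for *Lgals4* they were *Zc3h7a* (0.108), *Gm48062* (0.111) and *Gm30238* (0.143). The profiles of the members themselves had SDs of 0.147, 0.243 and 0.472, so the nearest genes of *Lgals4* were nearer to it relative to its own spread than those of *Lgals1*.

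Most enzymes that build the galectin ligand were detected above 1 TPM. Of 20 genes for the branching, galactosylation and poly-N-acetyllactosamine steps, 18 were tested and 0 were called by edgeR (*B3gnt3* and *Gcnt1* stayed under 1 TPM), with 8 log2 fold changes above and 10 below zero and a median of -0.02. At an unadjusted p under 0.05, 2 were lower, *Mgat2* and *B3gnt4* (log2 fold change -0.96, edgeR adjusted p = 0.52), the latter named after its value was seen. The most abundant were *Mgat4b* (138 TPM, log2 fold change 0.02), which starts a further antenna after MGAT2 has acted, the mannosidase genes *Man2a2* (103 TPM, -0.06) and *Man2a1* (65.4 TPM, 0.09), and the galactosyltransferase gene *B4galt3* (72.0 TPM, -0.02). The 95% interval of each of these 4 genes included zero.

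Of 9 listed sialyl- and fucosyltransferase genes, most of which cap or decorate the lactosamine, 5 were tested and 0 were called. All 5 log2 fold changes were between 0.06 and 0.14. The genes tested included *St3gal4* (92.2 TPM), *Fut8* (58.4 TPM), *St3gal6* (31.9 TPM) and *St6gal1* (18.8 TPM), which adds the sialic acid that blocks many galectins. *Fut8* acts on the N-glycan core instead of the lactosamine.

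Glycoproteins that galectins are known to bind were among the abundant transcripts. Of 22 listed, 19 were tested and 0 were called by edgeR, with 17 log2 fold changes above zero, 2 below and a median of 0.13. At an unadjusted p under 0.05, 4 were higher in cKO, which is 4 of 19 against 8.90% of all genes in either direction. The integrin gene *Itgb1* was at 291 ± 7.48 CPM in controls and 337 ± 14.5 CPM in cKO (SD, n = 4 each), a log2 fold change of 0.21 (SE 0.0621, 95% interval 0.08 to 0.35, edgeR adjusted p = 0.35, DESeq2 adjusted p = 0.042). *P4hb*, the protein disulfide isomerase through which galectin-9 acts at the T cell surface, was at 330 ± 5.82 CPM in controls and 365 ± 9.32 CPM in cKO, a log2 fold change of 0.14 (edgeR adjusted p = 0.52). Both were higher in all 4 cKO libraries than in any control. These were 2 of 19 ligand genes tested, while 5.50% of all genes tested had genotypes that did not overlap in either direction. The other two, named after their values were seen, were the lysosomal *Lamp2* (log2 fold change 0.27, edgeR adjusted p = 0.53) and the integrin *Itgav* (0.27, edgeR adjusted p = 0.46), whose genotypes overlapped.

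The most abundant ligand transcripts did not follow *Itgb1*. *Bsg*, the basigin gene, encoding a glycoprotein that spermatogenesis requires, was at 586 TPM with a log2 fold change of -0.09 (95% interval -0.23 to 0.06, edgeR adjusted p = 0.71). *Lamp1*, a lysosomal glycoprotein gene, was at 353 TPM with a log2 fold change of -0.12 (95% interval -0.36 to 0.12, edgeR adjusted p = 0.77). The 3 listed ligands that were not tested, *Havcr2* (the TIM-3 gene), *Cd44* and *Vtn*, were below 1 TPM in every library. No transcript of the lectins, of the enzymes that make their sugar ligand, or of the glycoproteins that bear it was called by the edgeR fit. That fit did not call the deleted gene *Mgat2* either, so a gene it leaves uncalled may still differ. DESeq2 called *Mgat2* (adjusted p = 0.025) and *Itgb1* (adjusted p = 0.042) and none of the lectins.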

How the data were processed

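Germ cell RNA of 15-day males was sequenced as poly(A)-selected, unstranded paired-end libraries, 1 per mouse (4 control, 4 cKO). The authors aligned reads to mm39 (Ensembl annotation) with STAR 2.7.9a and deposited RSEM 1.3.3 expected counts and TPM per gene; 15.2% of the nonzero expected counts were not whole numbers. Groups and replicate numbers came from the sample titles. Expected counts were rounded, the filter retained genes that reached 1 TPM in any sample (20187 of 55357), and genotypes were compared with edgeR 4.0.16 (TMM, robust quasi-likelihood test, genotype as the only term), calling a gene at a Benjamini-Hochberg adjusted p under 0.05 across the table. Standard errors are the log2 fold change over the square root of F, with 95% intervals from the moderated degrees of freedom. Single values were compared by exact two-sided permutation tests over 70 assignments (smallest p 0.029). DESeq2 1.42.0 and limma 3.58.1 served as alternatives, with other filters, scalings, pseudocounts, a replicate block and omitted libraries. On simulated counts for the comparison (20057 genes, 200 changed 3-fold), edgeR recovered 99% of changed genes. The changed genes were drawn from well-read genes only, and the simulated spread followed the average trend with level. This recovery covers neither smaller changes nor genes with few counts, such as *Lgals2*, *Lgals3* and *Lgals7*. Genes that vary between libraries more than the trend are not covered either. One such gene, named after its value was seen, is *Piwil1*, read at 613 to 9508 counts. Its log2 fold change was -2.05, and edgeR did not call it (adjusted p = 0.44). A floor of 3 counts covers counting error only.

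The members and lists (lactosamine enzymes, caps, ligands and 12 cell type marker lists) were chosen with earlier results of these data known. Named were all members, related family genes, *Mgat2*, called genes, the 4 most abundant tested genes of the enzyme, cap and ligand lists, markers at 0 and the genes nearest in profile; of the marker lists, in which the edgeR fit called no gene, sums are given instead. Coordinates and coding sequences are from GENCODE M39 (GRCm39, the build also known as mm39), to which 9 of 9 identifiers matched; domains were aligned after translation with Biopython 1.88.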

Additional observations from a re-analysis of the deposited data

Results flagged for a closer look

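Within groups of 4, a library was examined for standing apart from the other 3 in 64 groups of values, and 6 did so, where chance alone gives about 1 in 20 groups. Among the members, *Lgals3bp* was at 6.81 TPM in control 2, the next control being at 2.92 TPM, and *Lgalsl* was at 17.5 CPM in cKO 2, the next cKO being at 16.2 CPM. The other 4 were marker sums of replicate 1 libraries. In cKO 1 the Sertoli markers summed to 4920 TPM (nearest cKO 5729), the differentiating spermatogonia markers to 461.7 TPM (nearest 337.7) and the pachytene spermatocyte markers to 983 TPM (nearest 505). In control 1 the peritubular myoid markers summed to 405.3 TPM (nearest control 533). Without both replicate 1 libraries, the log2 fold change was 0.09 for *Lgals1*, -0.20 for *Lgals8*, -0.35 for *Lgals4*, 0.16 for *Lgalsl*, 0.21 for *Lgals2* and -0.29 for *Lgals3bp*. In the same setting it was -0.57 for *Lgals9*, -0.087 for *Lgals7* and 0.049 for *Lgals3*, against -0.37, -0.18 and -0.28 with all 8.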

How the results depend on the processing

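The count of galectin members called was 0 in every setting run, and the lowest adjusted p of any member was 0.29 (*Lgals8*, edgeR with the replicate block). The number of genes called over the whole table was 8 in the fit reported and 35 with no expression filter, 0 with filterByExpr, 17 with library totals only, 302 with DESeq2, 0 with limma-voom and 0 with limma-trend on log2(TPM + 1) or log2(TPM + 0.1). With 1 library left out it ran from 0 to 32, and without replicate 1 of both genotypes it was 845. With a replicate block it was 1464 in edgeR and 1223 in DESeq2, where *Lamp2* and *Itgb1* were among the genes called by edgeR (adjusted p = 0.0021 and 0.012). Same-numbered libraries deviated together with correlations of 0.53, 0.14, 0.04 and 0.20 for numbers 1 to 4. Their mean was 0.23, against -0.068 for differently numbered libraries. The sample titles name no pairing, so the reported fit did not pair the mice. Whether the numbers mark pairs or batches was not tested. The median log2 fold change of the members, -0.22, was -0.057 with TPM + 1 and -0.059 with TPM + 0.1, ran from -0.27 to -0.087 (without control 1) with 1 library left out, and was -0.087 without replicate 1 of both genotypes. *Lgals1*, *Lgals2*, *Lgals4*, *Lgals8*, *Lgals9* and *Lgalsl* kept their sign in 19 of 19 settings. Reversals came with libraries left out, and the cause was not tested. With libraries left out, the log2 fold change ranged from -0.36 to 0.10 for *Lgals3bp*, -0.41 to 0.073 for *Lgals7* and -0.47 to 0.049 (without replicate 1 of both genotypes) for *Lgals3*. On log2(TPM + 0.1) they were -0.66 for *Lgals7* and -0.55 for *Lgals3*. The log2 ratio of the summed galectin TPM, 0.03 with all 8 libraries, ran from -0.015 (without control 3) to 0.091 (without control 2), and was -0.012 without control 1. For marker sums, leaving out 1 library moved the log2 ratio from -0.21 to 0.18 (Leydig), -0.34 to 0.042 (endothelial), -0.080 to 0.36 (erythroid), -0.063 to 0.20 (differentiating spermatogonia) and -0.21 to 0.036 (early spermatocyte). The ligand genes called rose from 0 to 3 without replicate 1 of both genotypes. Marker genes called numbered 0 in the fit reported, 2 with DESeq2 (*Piwil1* and *Id4*, adjusted p = 0.035 and 0.039), 12 with the replicate block in edgeR (*Piwil1* at adjusted p = 1.2e-16 among them), 12 with it in DESeq2 and 8 without replicate 1 of both genotypes. *Lgals2*, *Lgals3* and *Lgals7*, read at 6 to 25 counts per library, had the widest intervals.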
